A study of Mus musculus with 20 samples.

Results

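Central memory Tfh cells were the 725 cells, of 28192 follicular T cells in the RNA table (2.57%), that the authors' deposited cluster labels placed in the cluster they named Tfh-CM. Single cells came from the spleens of 10 irradiated C57BL/6 recipients. The labels give the sort as CD4+CXCR5+PD1+, and the study's methods add CD3+ and the congenic markers, CD45.2+ and CD45.1-. In 5 WT chimeras the recipients had received congenic WT marrow and were immunized with NP-OVA in alum at week 6. The study's methods also describe a later NP-OVA booster for immunized chimeras, while the labels give week 6 only. In 5 564Igi chimeras the marrow was a mixture of WT and 564Igi marrow, the latter carrying a knocked-in B cell receptor, heavy and light chain, that binds self ribonuclear complexes. The labels give no immunization for the 564Igi chimeras. All mice were killed 10 weeks after irradiation. Which marrow or recipient carried which congenic marker is not given in the sources used here, so the marrow that the sorted T cells came from is not known here. Each mouse gave 1 gene expression library and 1 paired T cell receptor (TCR) library.

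Central memory T cells are antigen-experienced cells that recirculate through lymphoid organs. They are recognized by homing molecules such as CCR7, which lets cells enter lymph nodes, and by the transcription factors TCF-1 (Tcf7), LEF1 and KLF2, which are also high in naive T cells. Follicular helper T (Tfh) cells lie in B cell follicles, where CXCR5, PD-1, ICOS, CD40 ligand and interleukin-21 mark the help they give to B cells. Follicular regulatory (Tfr) cells share CXCR5 and PD-1 and carry Foxp3.

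The WT mice held 185, 62, 42, 176 and 95 of the cells (mice 11, 12, 14, 23 and 36). The 564Igi mice held 21, 83, 19, 29 and 13 (mice 13, 17, 21, 24 and 34). Genes were described in the 8 mice with 20 or more of these cells, all 5 WT mice and 3 564Igi mice (13, 17 and 24). The libraries held 1121 to 4030 cells and 3424280 to 15241983 unique molecular identifiers (UMIs). The central memory cells had a median of 4027 UMIs and 1721 genes per cell against 3531 and 1638 in the other cells, and were the deeper group in 8 of 10 mice. In mouse 17 the medians were 5842 against 4346 UMIs. Altogether 21 of the 725 cells carried a barcode that also occurred in another library, and no barcode was shared by 2 or more central memory cells.

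The values are the authors' depth-corrected counts per cell, used here as the mean of log2(corrected count + 1) per mouse. A level is that mean, and a difference is the level in central memory cells minus the level in all other cells of the same mouse, averaged over the 8 mice with its SD. The clusters had been drawn from these same genes, so the differences between clusters describe the cells and were not tested. Of 10767 genes described, 911 were higher and 1109 lower in all 8 mice.

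Sox4 and Ms4a4b had the largest differences. Sox4 (GRCm38 chr13:28948919-28953713, minus strand), a transcription factor of immature lymphocytes, was found in 66.9% of central memory cells (range 37.9% to 83.9% over 8 mice) and in 0.587% of the other cells, a difference of 1.15 ± 0.25 (SD, n = 8). Ms4a4b, a membrane protein of T cells, was found in 92.3% against 57.7% (1.15 ± 0.19). The lowest share of Sox4-positive cells was in mouse 24, which also had the fewest UMIs. Ccr7 (chr11:99144196-99155077, minus strand) differed far less. It was found in 19.0% of central memory cells (11.9% to 33.3%), in 11.2% of all other cells and in 15.8% of activated Tfh cells, and its level differed by 0.11 ± 0.09. Of the 2 label markers, then, Sox4 marked most of these cells and Ccr7 a minority.

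The 2 label markers, Sox4 and Ccr7, overlapped only in part. Sox4 was found in 508 of the 725 cells, Ccr7 in 140, both in 84 and neither in 161. Ccr7 was found in 16.5% of the Sox4-positive cells and in 25.8% of the Sox4-negative cells. Myb, a transcription factor of progenitors and thymocytes, was found in 475 cells and together with Sox4 in 356. Eomes was found in 57.3% of Sox4-positive and in 41% of Sox4-negative cells. These are shares of cells with a corrected count above 0, and neither missed transcripts nor free RNA were estimated.

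**Figure D1:**
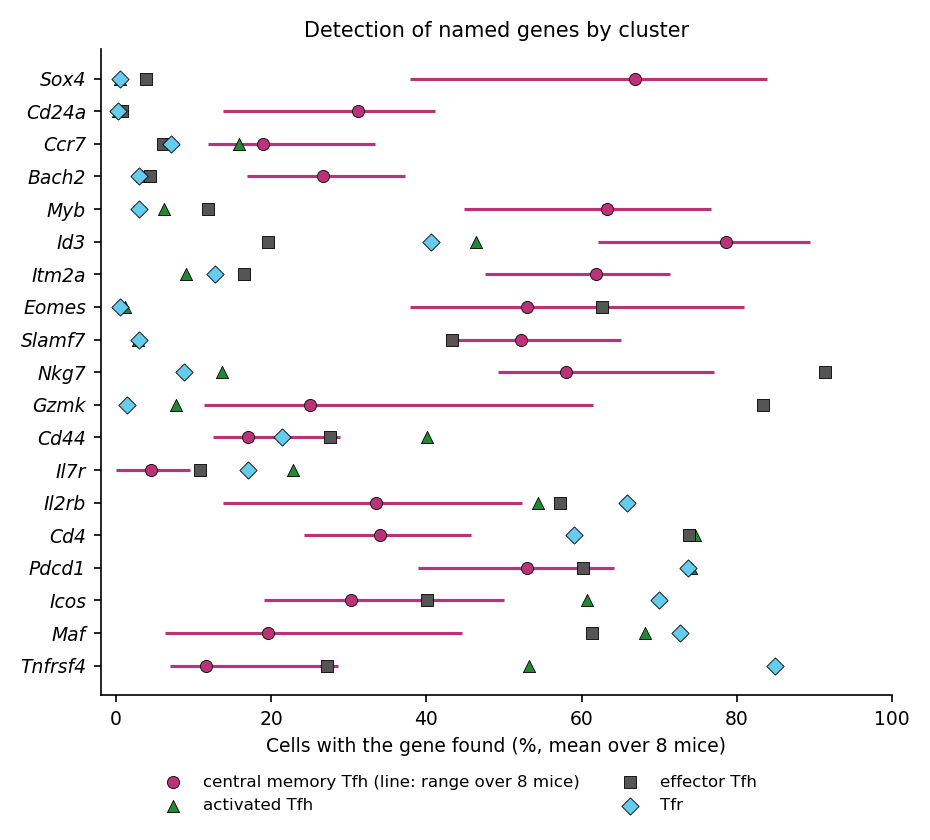
Percentage of cells in which each gene named on the y axis was found (x axis), as the mean over 8 mice, in central memory, activated, effector and Tfr cells; the line spans the lowest to the highest mouse for central memory cells. Sox4, Myb and Itm2a stand far to the right of the other clusters, Eomes and Slamf7 lie beside effector cells, and Cd44, Il7r, Il2rb, Cd4, Icos, Maf and Tnfrsf4 lie below the activated cells.

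The central memory and homing list held 18 genes, of which 11 were higher and 4 lower in all 8 mice (median difference 0.29, against 0.00 over all genes described). The higher members were transcription factors of quiescent T cells and receptors of lymphocyte traffic. Lef1 was found in 72.3% against 29.5% of cells, a difference of 0.76 ± 0.17. Klf2, which drives S1pr1, was found in 57.5% against 21.1%, a difference of 0.64 ± 0.21. Tcf7 differed by 0.45 ± 0.14, Foxp1 by 0.49 ± 0.15, and Bach2, a repressor that keeps lymphocytes from effector differentiation, by 0.28 ± 0.10. Gpr183, a receptor for oxysterols at the follicle border, differed by 0.48 ± 0.09, and S1pr1, the receptor by which T cells leave lymphoid organs, by 0.29 ± 0.20.

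The 4 lower members, Cd44, Il7r, Il2rb and Il6ra, all encode surface receptors. Cd44 was found in 17.05% of central memory cells against 31.7% of the others, a difference of -0.18 ± 0.07. Il7r, the interleukin-7 receptor that keeps memory and naive T cells alive, was found in 4.53% (0% to 9.52%) against 18.9%. Il2rb was found in 33.5% against 59.8%, and Il6ra in 9.10% against 33.1%. The data therefore go only partly with the label. The cells had the Lef1, Tcf7 and Klf2 shared by naive and central memory T cells, little Ccr7, and less Cd44, Il7r and Il2rb than the rest of the sort. The name central memory is kept below as the authors' cluster name.

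Genes of immature T cells were high. The list held 15 genes of which 11 were in the matrix, and 8 of those were higher and 0 lower in all 8 mice (median 0.28). Besides Sox4, Itm2a, a membrane protein induced during thymic selection, was found in 61.9% against 11.1% of cells (1.06 ± 0.30). Myb was found in 63.3% against 4.48% (0.88 ± 0.22). Satb1, a chromatin organizer of thymocytes, was found in 33.8% against 1.73%, and Cd24a, which falls as T cells mature, in 31.1% against 0.271%. Bcl11b, which fixes T lineage identity, was higher by 0.28 ± 0.06. The early thymic genes Rag1, Rag2, Dntt and Ptcra had no row in the matrix, and Ccr9 was found in 0.408% of the cells.

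Id3, which encodes an inhibitor of E proteins, was found in 78.6% against 42.7% of cells (0.88 ± 0.19), while Id2 was lower (-0.13 ± 0.07). Of 20 lymphoid transcription factors 13 were higher and 4 lower in all 8 mice (median 0.40). The 4 lower were Maf (-0.88 ± 0.13), Gata3 (-0.20 ± 0.05), Id2 and Prdm1. Maf, which supports interleukin-21 and the Tfh state, was found in 19.6% of central memory cells against 70.1% of the others, but in 44.6% in mouse 17 and 6.32% in mouse 36.

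**Figure D2:**
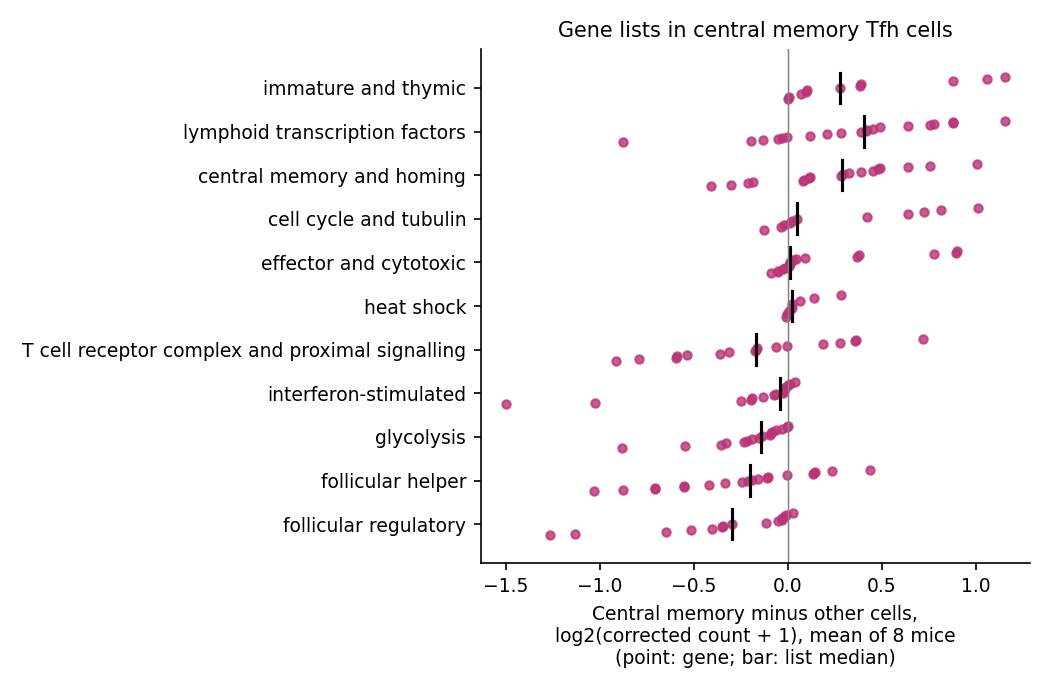
Level in central memory cells minus that in other cells of each mouse, as mean log2(corrected count + 1) averaged over 8 mice (x axis), for 11 gene lists; each point is a gene and each bar the list's median. Immature and thymic genes, lymphoid transcription factors and central memory genes lie mostly right of 0, and follicular helper, follicular regulatory and glycolysis genes mostly left of it.

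The follicular program was low. Of 20 follicular helper genes 14 were lower and 1 higher in all 8 mice (median -0.20). Pdcd1, the gene for PD-1, was found in 53.0% against 75.1% of cells (-0.71 ± 0.24). Icos was found in 30.3% against 65.1% (-0.71 ± 0.19), Tigit in 25.3% against 71.2% (-1.03 ± 0.19) and Cd40lg in 4.67% against 35%. Il21 was found in 2.83% against 14.8% and Il4 in 1.35% against 9.83%. Cxcr5 was found in 26.8% against 40.5% (-0.21 ± 0.09), although both CXCR5 and PD-1 had been used to sort the cells. Bcl6, the master regulator of Tfh cells, did not differ in one direction: it was found in 10.3% against 10.9% of cells, higher in 4 mice and lower in 4. The 1 higher member was Slamf6, an adhesion receptor (0.43 ± 0.10).

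Follicular regulatory genes were lower than in all other cells too, 11 of 15 in all 8 mice and 0 higher (median -0.29). Those other cells include 11650 Tfr cells. Against activated Tfh cells alone the median of the list was -0.04. Foxp3 was found in 7.06% of central memory cells, against 56.2% of Tfr cells and 7.94% of activated Tfh cells. Tnfrsf4, which encodes OX40, was found in 11.5% against 67.2% (-1.13 ± 0.14), and Izumo1r, the folate receptor 4 gene, differed by -1.26 ± 0.23.

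A part of the effector program was present. Of 18 effector and cytotoxic genes 6 were higher and 4 lower in all 8 mice (median 0.01). Eomes, a transcription factor of memory and cytotoxic T cells, was found in 53.0% of central memory cells (37.9% to 81.0%), in 62.7% of effector Tfh cells and in 1.10% of activated Tfh cells. Slamf7, an activating receptor of cytotoxic lymphocytes, was found in 52.2% against 43.3% of effector cells and 2.86% of activated cells. Nkg7, a granule protein, was found in 58.0% of central memory and 91.4% of effector cells, and Crtam, an adhesion receptor of cytotoxic T cells, in 28.8% and 23.7%. Gzmk, which encodes granzyme K, was found in 24.9% (11.3% to 61.4%) against 83.5% of effector cells. Ccl5, a chemokine of memory and cytotoxic T cells, was found in 15.3% against 75.6%. Tbx21, the gene for T-bet, was found in 1.55% of the central memory cells. Eomes and Slamf7 often occurred together, with 380 Eomes-positive cells, 368 Slamf7-positive cells and 250 positive for both.

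The coreceptor and the TCR complex were low. Cd4 was found in 34% of central memory cells (24.2% to 45.8%) against 68.1% of the others (-0.59 ± 0.11). Of 17 genes of the TCR complex and its proximal signals 8 were lower and 5 higher in all 8 mice (median -0.17). Cd3g differed by -0.91 ± 0.15, Cd2 by -0.79 ± 0.15, Cd3e by -0.60 ± 0.13 and the kinase gene Zap70 by -0.54 ± 0.13. Txk, a Tec family kinase, went the other way by 0.72 ± 0.07 and was found in 59.6% against 8.25% of cells. Cd3e was still found in 97.5% of central memory cells.

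Other cell types left little trace. Cd8b1 was found in 4.75% against 4.85% of cells, and Cd8a had no row in the matrix. Zbtb16, the factor of innate-like T cells, and Lyz2, a myeloid gene, were found in 0% of the central memory cells, and Cd79a in 0.0710%. The summed level of 11 B cell genes ran from 0.128 to 0.535 in central memory cells and from 0.545 to 1.09 in the others. That of 6 myeloid genes ran from 0.616 to 0.969 against 1.07 to 1.42, and that of 4 erythroid genes from 0 to 0.0345 against 0 to 0.0228. The summed level of 16 innate-like genes ran from 0.637 to 1.45 against 1.29 to 1.77.

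Housekeeping programs differed as well. Ribosomal protein genes were higher, 26 of 30 of the small subunit (median 0.30) and 40 of 46 of the large subunit (median 0.29) in all 8 mice. Small-subunit transcripts made up a median of 11.2% to 13.8% of UMIs per mouse against 8.87% to 10.6% in the other cells, and the mitochondrial share was lower in 10 of 10 mice. Both shares and the UMI count had been regressed out by the authors before clustering. Tubulin genes were high, with Tubb5 1.01 ± 0.18 and Tubb2b in 48.7% against 1.72% of cells, as was Stmn1, a tubulin-binding protein (0.64 ± 0.18), whereas the proliferation marker Mki67 was found in 2.16% against 5.63%. The authors had removed cells scored as cycling. Of 16 glycolysis genes 10 were lower and 0 higher (median -0.14), led by Aldoa (-0.88 ± 0.19) and Gapdh (-0.55 ± 0.14). Of 16 interferon-stimulated genes 7 were lower and 0 higher, with Ifi27l2a at -1.50 ± 0.25 and Ly6e at -1.03 ± 0.31. The median of that list was only -0.04, and -0.02 against activated Tfh cells alone.

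The lowest genes overall were Cd52, a surface glycoprotein of lymphocytes (-1.59 ± 0.34), Ifi27l2a, S100a6, Srgn, which encodes the granule proteoglycan serglycin (-1.46 ± 0.27), S100a11 (-1.45 ± 0.23), the lincRNA AW112010 (-1.43 ± 0.34), Fxyd5 (-1.29 ± 0.18), Izumo1r, Ly6a and Cd82 (-1.19 ± 0.16). S100a6 and Ly6a rise when T cells are activated. S100a6 was found in 22.8% of central memory cells (4.84% to 45.2%) against 72.3% of the others, and Ly6a in 19.9% (1.61% to 44.8%) against 63.9%. The highest in both cases were mice 14 and 24, 1 of each condition.

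TCR genes had been taken out before clustering, so the receptors of the central memory cells give a readout that the cluster labels did not use. A productive TCR with both chains was listed for 570 of the 725 cells (78.6%). A clonotype is the set of cells of 1 mouse with the same pair of listed CDR3 amino acid sequences, counted over all cells of the mouse in the TCR table, and CDR3 is the junction that contacts peptide. The table lists 2 CDR3 entries per cell in sorted order, for amino acids and for bases. The listed bases translate to the listed amino acids in 29387 of 33833 cells and in 468 of 570 central memory cells. In the other cells the entries listed need not be the same chains, and a listed pair need not be 1 α and 1 β chain.

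Few central memory cells had a clonal relative. The share of their cells in clonotypes of 2 or more cells was 3.59%, 4.17%, 17.9%, 4.76% and 2.13% in WT mice 11, 12, 14, 23 and 36. It was 5.56%, 33.8%, 0%, 4.55% and 10.0% in 564Igi mice 13, 17, 21, 24 and 34. Mouse 17 stood highest and mouse 14 next, and every mouse was below its own other cells. The mean was 8.64% ± 10.1 (SD, n = 10) in central memory cells and 70.5% ± 5.49 in the other cells of the same mice, a difference of -61.9 ± 10.9 percentage points (lower in 10 of 10 mice, two-sided exact sign-flip test over mice, p = 0.00195, the smallest that 10 mice allow, adjusted p = 0.00977 over 10 TCR measures). Mean log2 clone size was 0.149 against 2.50, a difference of -2.35 ± 0.52 (lower in 10 of 10 mice, exact sign-flip adjusted p = 0.00977).

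Pooled over mice, 47 of 570 central memory cells (8.25%) were in such clonotypes, or 24 of 502 (4.78%) without mouse 17. The share was 73.3% in activated Tfh, 75.2% in effector Tfh, 66.2% in Tfr, 82.0% in Sostdc1 Tfh and 64.3% in interferon stimulated Tfh cells. Over the cells whose listed bases translate to the listed amino acids, the means over mice were 7.94% in central memory and 72.7% in the other cells, with 38 central memory cells in clonotypes of 2 or more. With identical bases in place of amino acids over the same cells, they were 7.77% and 72.4%, with 37 central memory cells. In both counts central memory cells were lower in 10 of 10 mice.

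**Figure D3:**
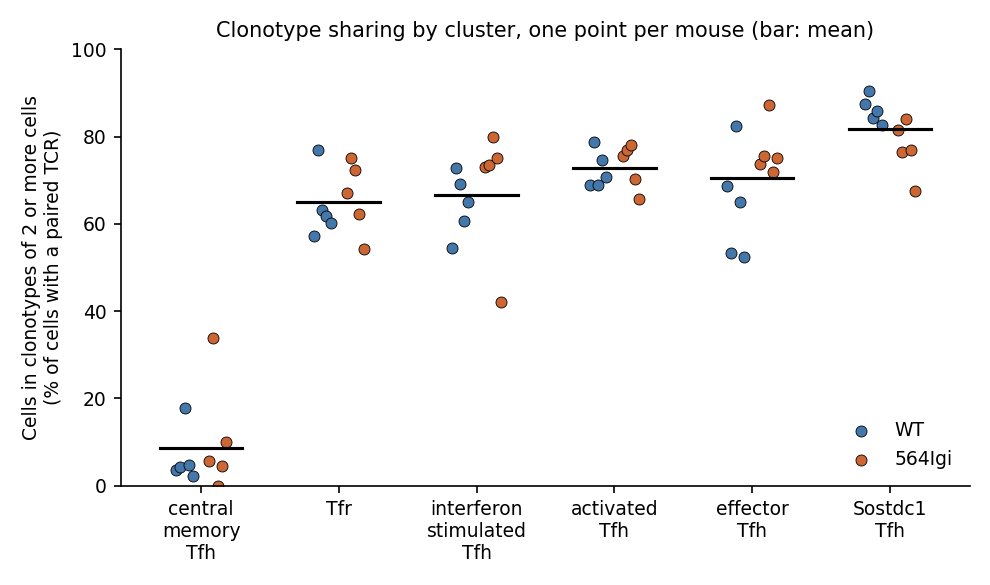
Share of cells with a paired TCR that belonged to a clonotype of 2 or more cells (y axis, %), by cluster; each point is a mouse, coloured by condition, and each bar the mean. In central memory cells the points lie between 0% and 33.8%, with mouse 17 highest, and in the other 5 clusters every mouse lies between 42.1% and 90.5%.

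The 47 cells belonged to 37 clonotypes, of which 9 held 2 or more central memory cells and 6 held central memory cells alone. Relatives were found among activated Tfh cells for 16 of the clonotypes, among Tfr cells for 6 and among effector cells for 3. The relatives numbered 48 activated, 10 Sostdc1, 9 Tfr, 4 effector and 2 interferon stimulated cells, with 50 more outside the RNA table, whose cluster is not known. For 11 of the clonotypes the relatives were all outside the RNA table. Outside mouse 17 the clonotype with the most central memory cells and the largest clonotype with any are given as their CDR3 nucleotides, since they are the 2 extremes of sharing.
Mouse 11, 3 cells, TRAV13N-1 and TRAJ12, CDR3α: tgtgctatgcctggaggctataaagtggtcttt
Mouse 11, 3 cells, TRBV1 and TRBJ2-4, CDR3β: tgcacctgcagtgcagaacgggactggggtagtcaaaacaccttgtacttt
Mouse 23, 37 cells, TRAV6-6 and TRAJ12, CDR3α: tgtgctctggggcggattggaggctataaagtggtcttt
Mouse 23, 37 cells, TRBV20 and TRBJ1-3, CDR3β: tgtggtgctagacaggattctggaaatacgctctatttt
All 3 cells of the mouse 11 clonotype were central memory cells and carried identical bases. The mouse 23 clonotype had 37 cells with identical bases, of which 1 was a central memory cell, 14 activated, 7 Sostdc1 and 3 Tfr, with 12 outside the RNA table.

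Mouse 17 held 23 of the 47 cells, in 19 clonotypes, and many used the same gene segments. TRAV6-7-DV9 or TRAV6N-7 with a β chain assigned jointly to TRBV12-2 and TRBV13-2 was found in 20 of 68 central memory cells of mouse 17 (29.4%). The same pair was found in 150 of 1281 of its activated cells (11.7%), 11.3% of effector, 8.82% of interferon stimulated, 4.57% of Tfr and 2.35% of Sostdc1 cells. Among central memory cells of the other mice it was found in 3 of 147 in mouse 23 (2.04%) and in 0 in each of the remaining 8. The 4 largest of these clonotypes with central memory cells, as read in a central memory cell, show the stretch they share, in capitals at the start of each chain.
Clonotype of 9 cells, TRAJ50, CDR3α: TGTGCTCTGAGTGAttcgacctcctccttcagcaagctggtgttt
Clonotype of 9 cells, TRBJ1-5, CDR3β: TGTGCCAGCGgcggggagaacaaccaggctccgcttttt
Clonotype of 5 cells, TRAJ42, CDR3α: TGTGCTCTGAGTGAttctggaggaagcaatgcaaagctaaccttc
Clonotype of 5 cells, TRBJ2-3, CDR3β: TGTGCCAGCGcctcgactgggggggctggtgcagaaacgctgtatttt
Clonotype of 4 cells, TRAJ49, CDR3α: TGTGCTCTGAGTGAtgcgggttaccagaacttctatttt
Clonotype of 4 cells, TRBJ2-7, CDR3β: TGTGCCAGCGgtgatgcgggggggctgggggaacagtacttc
Clonotype of 3 cells, TRAJ53, CDR3α: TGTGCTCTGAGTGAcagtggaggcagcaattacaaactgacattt
Clonotype of 3 cells, TRBJ2-5, CDR3β: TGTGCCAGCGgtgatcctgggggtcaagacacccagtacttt
The shared stretches are 14 bases in the α chain and 10 in the β chain, the joining segments all differ, and the 4 clonotypes are thus different rearrangements. The clonotypes were picked for the same V segments, which encode the start of CDR3, so the shared stretches follow from that choice. The clonotypes of 9 and 5 cells had the same bases in every cell. In those of 4 and 3 cells no other cell listed the β chain bases printed. In mouse 17, 18 of 57 central memory cells with both chains resolved (31.6%) began with both stretches, against 178 of 2135 other cells (8.34%), and in no other mouse did either group exceed 1.40%. Because the starts go with the V segments, these shares are not a result separate from the segment pair above. The pattern was singled out after the values were seen, comes from 1 mouse and was not tested.

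The remaining TCR measures did not pass the exact sign-flip test over 10 mice. The share of cells with 2 or more α chain V genes listed, which doublets raise, was 16.6% ± 9.59 against 11.9% ± 4.01 (higher in 8 of 10 mice, adjusted p = 0.234, exact). Mean CDR3α length was 13.56 against 13.53 residues and CDR3β length 13.92 against 13.98, and the mean TRAJ number, a position along the α locus, was 31.6 against 32.2 (each exact adjusted p = 0.923). The share of cells with any paired TCR was 76.7% against 77.2% (exact adjusted p = 0.977). The invariant natural killer T chain TRAV11-TRAJ18 was found in 4 cells of the whole series and in 0 of 570 central memory cells, which allows a share of up to 0.526%, and TRAV1-TRAJ33 of mucosal invariant cells in 2 and 0 cells.

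Use of variable and joining segments was compared over clonotypes. Of 22 TRBV genes tested 1 passed an exact sign-flip test at an adjusted p under 0.05 (4.55% of those tested), of 19 TRAV families 0 (0%, with 5 at an unadjusted p under 0.05) and of 43 TRAJ genes 4 (9.3%). Each mouse had only 9 to 142 central memory clonotypes. The TRBV call covers only chains assigned to TRBV13-2 alone. Chains assigned jointly to TRBV12-2 and TRBV13-2 were counted apart, in 69 clonotypes against 60.1 at the other cells' share (exact sign-flip adjusted p = 0.829). The called TRBV13-2 was at 0 in central memory cells of 9 of 10 mice, with 1 clonotype found where the other cells' share gives 4.78. TRAJ11, TRAJ5 and TRAJ53 were likewise at 0 in 9, 9 and 7 mice, so for these segments a lower use cannot be told apart from too few clonotypes. TRAJ23 was at 0 in 4 of 10 mice, with 16 of 488 clonotypes against 22.3 at the other cells' share and 2.11% ± 2.04 against 3.91% ± 1.37 (lower in 10 of 10 mice, exact adjusted p = 0.0420). The TRAJ calls depended on the setting, with 0 over cells in place of clonotypes, 0 against activated cells alone, 1 among segments found in central memory cells of 5 or more mice, and 0 without any 1 mouse other than mouse 36 (4 without mouse 36). The gap for TRBV2 was wider, 15 against 35.3 of 485 clonotypes and 2.70% ± 3.11 against 7.29% ± 3.1, but did not pass (lower in 9 of 10 mice, exact p = 0.00586, adjusted p = 0.0645). TRBV3 was found in 94 clonotypes against 49.5 at the other cells' share (higher in 7 of 10 mice, exact adjusted p = 0.483).

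Cells with a clonal relative looked somewhat different from cells without one, which is given as shares of cells, pooled and not tested. In mouse 17, Gzmk was found in 95.7% of 23 cells with a relative and 51.1% of 45 without, Cd4 in 60.9% against 28.9% and Sox4 in 65.2% against 88.9%. In the other mice, Gzmk was found in 50% of 24 cells with a relative and 16.5% of 478 without, Cd4 in 54.2% against 32.2%, Maf in 37.5% against 11.1% and Ccr7 in 4.17% against 20.7%. Median UMIs were 5671 against 6141 in mouse 17 and 4806 against 3981 elsewhere. Between conditions, 14.6% ± 16.6 (n = 3) of central memory cells in 564Igi and 6.50% ± 6.42 (n = 5) in WT chimeras were in clonotypes of 2 or more cells (exact permutation p = 0.286, smallest possible 0.0357). Without mouse 17 the difference of 8.14 points turned to -1.45.

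The share of central memory cells among all cells asks whether the population differed between immunized and autoimmune chimeras. It was 6.50%, 2.30%, 2.22%, 5.01% and 2.36% in WT mice 11, 12, 14, 23 and 36, and 0.694%, 2.73%, 0.609%, 2.59% and 0.445% in 564Igi mice 13, 17, 21, 24 and 34. Mice 17 and 24 lay within the WT range and the other 564Igi mice below it. The two-sided exact permutation test over mice gave a difference of -2.27 percentage points with p = 0.0794 (n = 5 and 5, smallest possible 0.00794). Counted among cells outside the Tfr cluster the difference was -4.16 points with exact permutation p = 0.0476. The 2 564Igi mice within the WT range were the 2 labelled male (2.59% and 2.73%), and the 3 labelled female held 0.445% to 0.694%, while in WT chimeras females (2.30% and 6.50%) and males (2.22% to 5.01%) overlapped. The part of sex was not tested.

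**Figure D4:**
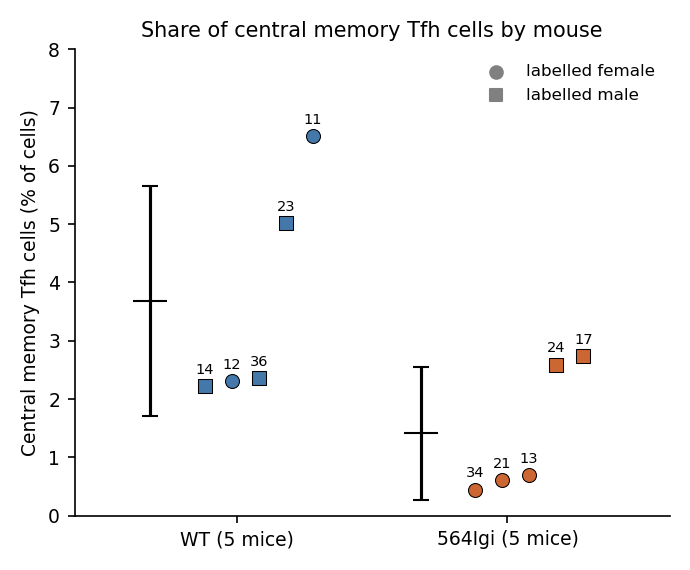
Central memory cells as a percentage of all cells of each mouse (y axis), with mouse numbers, labelled sex as the marker shape, and the mean and SD of each condition as the bar. The 2 male 564Igi mice lie at 2.59% and 2.73%, beside the 3 lowest WT mice, and the 3 female 564Igi mice lie below 1%.

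Gene levels in central memory cells were compared between conditions in the 5 WT and 3 564Igi mice with 20 or more of them. The authors had corrected the counts of the 2 conditions separately, so a part of any difference between conditions can come from that step and cannot be told apart here. Of 10351 genes tested 0 passed limma's test at an adjusted p under 0.01 with a difference over 0.2 (0% called), and 784 had an unadjusted p under 0.05 (7.57%). In simulated data of the same size, differences were added to 200 genes drawn at random, and 90% of those of 0.5 were recovered. That share is an average over genes of every spread and need not hold for genes that vary more between mice. The simulated noise was independent between genes and had the same spread in every mouse, whatever its number of cells. Shifts shared by many genes of a mouse were not simulated. Observed differences of 0.83 for Gm42031 (limma adjusted p = 0.0570) and 0.63 for AW112010 (limma adjusted p = 0.0203) did not pass.

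The smallest adjusted p was that of Ccl5 (chr11:83525778-83530518, minus strand). Its levels were 0.16, 0.11, 0.24, 0.19 and 0.13 in WT mice 11, 12, 14, 23 and 36, and 0.49, 0.40 and 0.55 in 564Igi mice 13, 17 and 24. The groups did not overlap, and the difference was 0.31 ± 0.05 (SE, limma adjusted p = 0.0188). The 2 564Igi mice with under 20 cells were split, at 0.11 in mouse 21 (19 cells) and 0.78 in mouse 34 (13 cells). With all 10 mice in the fit the Ccl5 difference was 0.30 with limma adjusted p = 0.530. In activated Tfh cells of the same 8 mice the Ccl5 difference was -0.04, and the difference between the 2 cell types was 0.36 (limma adjusted p = 0.0190).

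AW112010, a lincRNA induced in activated T cells, had levels of 0.59, 0.41, 0.96, 0.59 and 0.65 in the WT mice and 1.19, 1.19 and 1.41 in mice 13, 17 and 24. The difference was 0.63 ± 0.11 (limma adjusted p = 0.0203). Mouse 21 was at 0.60, within the WT range, and mouse 34 at 1.16, and with all 10 mice the difference was 0.47 (limma adjusted p = 0.488).

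The effector and cytotoxic list, which holds Ccl5, moved mostly one way and was singled out after its values were seen. All 14 of its 18 genes that could be tested were higher in 564Igi, 9 of them at an unadjusted limma p under 0.05 against 7.57% of all genes. The groups did not overlap for 7 of the 14, against 4.77% of all genes. A gene was tested if found in at least 1% of cells in any 3 mice. A member near 0 in WT mice could therefore enter through the 3 564Igi mice alone. For such a member the filter favoured the direction, and its place in these counts lends no support. How many of the 14 entered in that way was not counted. Nkg7 ranged from 0.85 to 0.99 in WT mice and was 1.51, 1.92 and 1.13 in mice 13, 17 and 24 (0.58 ± 0.13, limma adjusted p = 0.124). Gzmk ranged from 0.25 to 0.30 in WT mice and was 0.55, 1.71 and 0.42 (0.62 ± 0.16, limma adjusted p = 0.224). Ccl3 and Ccl4, chemokines of activated T cells, were each higher by 0.09 (limma adjusted p = 0.0807 and 0.0920) at very low levels, where this limit of the filter can apply. Eomes overlapped between groups, with 0.61 to 0.84 in WT mice and 1.26, 0.98 and 0.67 in 564Igi mice.

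These values rest on which 564Igi mice are counted. Leaving out 1 mouse at a time, 13 to 15 genes of the list were higher and 7 to 11 had an unadjusted limma p under 0.05. Over the same fits the share of all genes under it ran from 5.62% (without mouse 23) to 14.6% (without mouse 24), and the 11 genes of the list came without mouse 24. With mice 21 and 34 added, 10 of 11 genes tested were higher, 4 had an unadjusted limma p under 0.05 (5.26% of all genes) and only 1 had groups that did not overlap. Mouse 21 lay below the WT range for Gzmk (0.21) and Eomes (0.51) and just above it for Nkg7 (1.1). Mouse 34 was high for Gzmk (1.55) and Ccl5. In activated Tfh cells of the 8 mice, 3 of 11 genes of the list were higher and 8 lower.

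**Figure D5:**
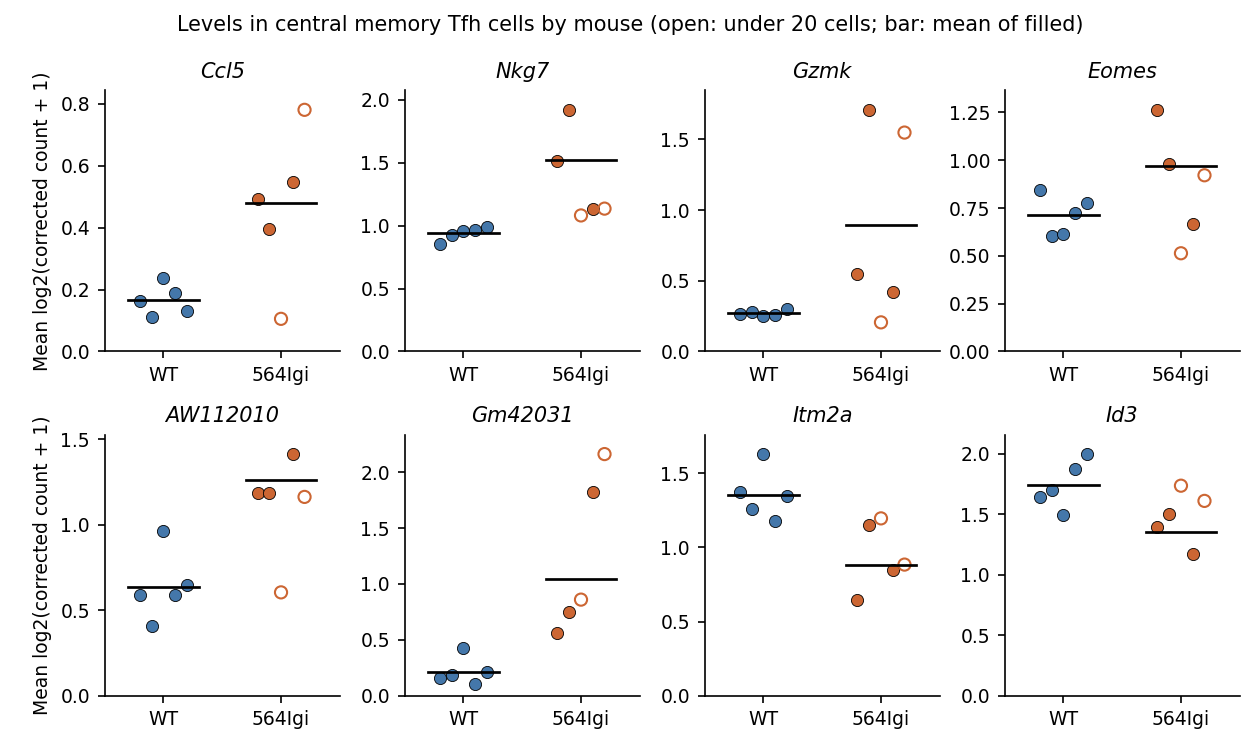
Mean log2(corrected count + 1) of 8 genes in the central memory cells of each mouse (y axis) in WT and 564Igi chimeras; filled points are mice with 20 or more cells, whose mean is the bar, and open points mice with 19 and 13 cells. For Ccl5 the open points lie at both ends of the 564Igi mice, for Gzmk and Eomes an open point lies lowest, and for Itm2a and Id3 the filled 564Igi points lie low.

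Of the other genes with the largest test values, Gm34093 (0.15 ± 0.03, limma adjusted p = 0.0434), Gm42031 (0.83 ± 0.16, limma adjusted p = 0.0570) and Efhd2, a calcium-binding adaptor (0.26 ± 0.05, limma adjusted p = 0.0570), were higher in 564Igi without passing the threshold. Gm34093 was found in 0% to 2.38% of cells in WT mice, in 19.0%, 9.64% and 13.8% in mice 13, 17 and 24, and in 0% in mice 21 and 34. It would not have passed the detection filter on the WT mice alone, so the filter favoured its direction. Gm42031 is a lincRNA (chr8:85125872-85132289, minus strand). Its levels in central memory cells were 0.10 to 0.42 in WT mice, 0.56, 0.75 and 1.83 in mice 13, 17 and 24, and 0.86 and 2.16 in mice 21 and 34, so all 5 564Igi mice lay above all WT mice. It was the 1 gene of 10069 called in activated Tfh cells of the same 8 mice (0.00993%), at 1.73, and the difference between the 2 cell types did not pass the test (-0.90, limma adjusted p = 0.299). Lag3, an inhibitory receptor, differed by 0.39 ± 0.10 (limma adjusted p = 0.221) with overlapping groups.

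Lower values in 564Igi came with weaker support. The adhesion gene Cldn10 (-0.32 ± 0.08) and Myod1 (-0.09 ± 0.02) had a limma adjusted p of 0.154 each. Myod1 was at 0 in all 5 564Igi mice and at 0.07 to 0.13 in WT mice. It passed the detection filter only through the WT mice, so the filter fixed its direction and its values lend no support. Itm2a was 1.18 to 1.63 in WT mice and 0.64, 1.15 and 0.85 in mice 13, 17 and 24 (-0.47 ± 0.13, limma adjusted p = 0.233). Of 9 immature and thymic genes tested 7 were lower and 2 higher, 3 of them at an unadjusted limma p under 0.05 (median -0.10), where 7.57% of all genes were and 4690 of 10351 were lower (median 0.00). Pou2af1, a lymphoid transcriptional coactivator, differed by -0.23 (limma adjusted p = 0.354). Id3 differed by -0.39 ± 0.14 and Ly6a by 0.23 ± 0.08 (limma adjusted p = 0.554 and 0.556). Sox4 (-0.11 ± 0.14) and Ccr7 (0.03 ± 0.06) had limma adjusted p values of 0.88 and 0.93 with overlapping groups. Itgb1, Aldoa, Thy1, Tpi1, Il7r and Pkm had limma adjusted p values from 0.616 to 0.983.

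Whether the condition difference itself differed between central memory and activated Tfh cells was tested within the same mice. No gene of 10351 passed (0% called), with 923 at an unadjusted limma p under 0.05 (8.92%). After Ccl5 the smallest adjusted p values were those of Zfp91, a ubiquitin ligase gene (0.12, limma adjusted p = 0.0767), Asap1, an Arf GTPase activator (0.35, limma adjusted p = 0.0836), and Saraf and Nlrc5, a regulator of MHC class I genes (limma adjusted p = 0.186 each). In the lower direction they were those of Serp1 (-0.29) and Jund (-0.23), with a limma adjusted p of 0.186 each, and of Gm42031, Hmgn2 (-0.24) and Tpm4 (-0.18), with 0.299 each.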

How the data were processed

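Gene expression and TCR libraries of sorted splenic follicular T cells were made from the same 10 mice (5 WT, 5 564Igi). Per the labels and the study's methods, the authors aligned reads with Cell Ranger 4.0.0 to GRCm38 (mm10), filtered cells, normalized each condition separately with sctransform in Seurat 3.1.4 and clustered the integrated cells. The deposited matrix (13798 genes, 28192 cells) holds natural log values, ln(corrected count + 1), per the deposited file; exp(value) - 1 was whole (tolerance 1e-06) in 100% of the non-zero entries. The deposited cell tables also hold raw UMI counts per cell, percent values (mitochondrial, ribosomal), scores and, per the deposited TCR table, UMI counts per chain. The authors' cluster labels were used as given. No doublet caller was run here, and the authors' upper limit on genes per cell applies.

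Levels were averaged per mouse as log2(corrected count + 1). Conditions were compared with limma 3.58.1 (R 4.3.3, trend) over mice with 20 or more central memory cells and genes found in at least 1% of those cells in 3 or more mice, with Benjamini-Hochberg adjustment; a call needs an adjusted p under 0.01 and a difference over 0.2. Shares and TCR measures were compared with exact permutation tests over mice (mice with at least 10 central memory cells with a TCR), paired within the mouse since both cell groups come from the same animal. Intervals and floors cover counting error only. The genes named were taken from the 15 largest differences in each direction, same sign in every mouse, the label markers, up to 6 members of each list found in 10% of cells, and, between conditions, the 5 largest limma statistics in each direction among genes whose groups did not overlap, with 10 genes the study names; others were named for their role. Some genes that the rule names are not reported here. The members, the lists and the tests were chosen with earlier results of these data known. Coordinates are from GENCODE vM21 on GRCm38. The limma fit recovered 90% of simulated differences of 0.5 and 100% of larger ones, with 0 false calls. The simulated differences were put on 200 genes drawn at random, so these shares are averages over genes of every spread. The noise was independent between genes and equal in spread between mice. The recovery and the 0 false calls therefore do not cover shifts shared by many genes or mice with few cells.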

Additional observations from a re-analysis of the deposited data

Results flagged for a closer look

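In 41 groups of 4 or more mice checked for a sample far from the rest, 5 values stood out, where chance gives about 5%. In central memory cells of WT mice, mouse 36 had the shortest mean CDR3α (13.1 residues, the other mice 13.5 or more) and the highest mean log2 summed chain UMIs (4.53, next 4.18). WT mouse 14 had the highest share of central memory cells in clonotypes of 2 or more cells (17.9%, next 4.76%) and the highest Ly6a level (0.49, next 0.14). WT mouse 11 had the lowest Cldn10 level (0.51, next 0.72).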

How the results depend on the processing

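Genes called between conditions in central memory cells were 0 in the fit reported and with limma without its trend, no filter on low genes, mice thinned to 20 cells or all 10 mice. They were 2 with genes found in 5% of cells (Ccl5, AW112010), 2 with counts scaled to a common total (Nkg7, Ccl5), 2 with labelled sex as a covariate (Ccl5, AW112010), 3 when only an adjusted p under 0.05 was asked for, and 20 (19 higher, 1 lower) with mice weighted by their cells. Leaving out 1 mouse gave 0 to 9, with 9 without mouse 24, 4 without mouse 13, and 1 each without mouse 17 and mouse 14. For the difference from activated cells, 1 gene (Ccl5) was called with the 5% filter and 1 when the size limit was dropped and the adjusted p set to 0.05, and 0 without any 1 mouse. The fit with all 10 mice, the clonotypes over cells with matching bases and amino acids, those by nucleotides and the filter on segments were chosen after the data were seen.

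The lower clonal share and clone size held in all alternatives by direction. With the 7 mice with 20 or more TCR cells they were -60.5 and -2.43 with exact sign-flip adjusted p = 0.0781, the smallest that 7 mice allow; without 1 mouse the clonal share ran from -64.0 to -60.2. Without the pairing (no replicate block) the differences were the same, -61.9 and -2.35, with permutation adjusted p = 0.0002, and it changed no call. The difference in 2 or more α chains (2.55 to 5.98 without 1 mouse) and in summed UMIs (-0.16 to -0.10) passed without mouse 12 and mouse 34. CDR3α length turned to -0.042 against activated cells (-0.014 to 0.053 without 1 mouse), CDR3β length to 0.032 against Tfr cells (-0.13 to 0.017) and TRAJ number to 0.068 against Tfr cells and 0.81 with 7 mice (-1.30 to 0.15). Calls among TRBV genes were 0 with segments found in central memory cells of 5 or more mice, 2 over cells and 0 to 2 without 1 mouse. Among TRAV families they were 1 against activated cells and 0 to 3 without 1 mouse. Among TRAJ genes they were 1, 0 over cells, 0 against activated cells and 0 to 4 without 1 mouse. The difference of central memory cells outside Tfr passed at -4.16 points. The clonal share between conditions ran from -1.45 to 13.2 without 1 mouse.

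Against activated cells alone, Cd74 (0.014) and Dusp1 (0.023) turned sign, and of 94 genes described 74 moved by less than 1 SD and 18 by more; with each cell thinned to one total, 86 and 8. Between conditions, Il7r turned to -0.018, -0.0079 and -0.023 (common total, weighted, thinned to 20 cells; -0.0076 to 0.028 without 1 mouse), Pkm to 0.10 and 0.11 (weighted, thinned; -0.093 to 0.040), Tpi1 to 0.075 (thinned) and 0.0065 (all 10 mice), and Thy1 to -0.019 without mouse 17 (up to 0.24 without another); none was called. The causes were not tested. α and β UMIs could not be separated in the TCR table, so their sum was used. The tests of cells with against without clonal relatives (1 mouse with 10 of each kind) and with TRAV11-TRAJ18 (0 mice) were not run.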
